A study of Mus musculus with 13 samples.

Results

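The interferon response genes examined here are 49 mouse genes, taken by symbol: receptor chains of the interferons, the transcription factors that the receptors act through, and genes that cells switch on when interferon is sensed. All 49 were among the 21100 genes of the count table, and 46 were compared between the tumor models, having a value in every tumor and 10 or more counts in 4 or more of the 13 tumors, whichever model these belong to. The data are bulk RNA sequencing of basal cell carcinoma (BCC) tumors of mice, 1 library per tumor, in 2 models. The design asks how tumors of a transplantable model differ from tumors of the genetically induced model it was derived from.

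The 9 GEM-BCC tumors (genetically engineered mouse model) grew in the skin of 7 female Ptch1+/- K14-CreER2 p53fl/fl mice after 3 injections of 300 µg tamoxifen and 1 X-ray dose of 4 Gy. The strain is spelled here as in the labels, and the study writes its Cre as CreERT2. One copy of Ptch1, the brake on Hedgehog signalling, is lost in these mice from birth, and the keratin 14 promoter confines the tamoxifen-activated Cre that removes Trp53 to basal epithelial cells, so the rest of the animal kept both floxed copies. The 4 Tp-BCC tumors (transplantable model) grew under the skin of the right flank of 4 female Ptch1+/-p53fl/fl mice, each given 2000000 tumor cells. These hosts carry no Cre, received no tamoxifen or X-ray, and are immunocompetent. The inoculated cells derive from an induced GEM-BCC tumor, and the study passaged them serially from host to host. All 4 transplants trace back to a single GEM-BCC tumor, so they sample 1 tumor lineage in 4 hosts. The age of the mice is not part of the labels. Tumors are called GEM1 to GEM9 and TP1 to TP4 after their libraries. 1 mouse gave both GEM2 and GEM3, and another gave GEM7 and GEM8. The GEM-BCC libraries formed batch 1 and the Tp-BCC libraries batch 2, so that a difference between models and a difference between batches cannot be told apart in any comparison below.

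Interferons are secreted proteins that warn cells of viruses, damaged nucleic acids and tumors. Type I interferons bind a receptor of the chains Ifnar1 and Ifnar2, which leads a complex that contains Stat2 and Irf9 to a DNA element called the ISRE, while interferon gamma, made by T and NK cells, acts through a receptor that contains Ifngr2 and leads to another element, the GAS. The genes switched on in this way block viral replication, tag proteins with Isg15, present antigen and damp the signal itself, and in skin tumors they are followed as a sign that immune cells and tumor cells are exchanging signals.

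Total expected counts were 28075317 to 32629102 per GEM-BCC tumor and 15388027 to 17494912 per Tp-BCC tumor. Values are given as CPM, counts scaled to the same library total for every tumor, with TMM factors. Markers of basal keratinocytes and BCC (8 genes, Krt5 the one with the highest CPM) summed to 12250 to 17960 CPM in GEM-BCC and 9043 to 21690 CPM in Tp-BCC, and none of the 8 passed the test between models. Markers of immune cells were low: 10 genes of T and NK cells (among them Cd4) summed to 0.429 to 4.97 CPM in GEM-BCC and 1.47 to 2.64 CPM in Tp-BCC, and 6 genes of B and plasma cells (among them Cd79a) to 0.363 to 9.97 and 0.942 to 1.38 CPM, while 10 macrophage genes (among them Csf1r) summed to 55.9 to 281 and 172.5 to 310.1 CPM. Endothelial markers (6 genes, among them Cdh5) summed to 78.8 to 204.4 CPM in GEM-BCC and 223 to 316 CPM in Tp-BCC, without overlap. Dendritic cell markers (7 genes, among them Itgax) summed to 1.98 to 13.6 and 6.71 to 11.4 CPM, neutrophil markers (among them Csf3r) to 0.923 to 8.21 and 1.18 to 2.43 CPM, and fibroblast markers (among them Col1a2) to 11990 to 49010 and 15550 to 28040 CPM. Single markers that passed the test as higher in Tp-BCC were Cd68 (1 of 10 macrophage genes tested) and Zbtb46 (1 of 3 dendritic cell genes). Cdh5, Kdr and Emcn (3 of 6 endothelial genes) and Pdgfra (1 of 6 fibroblast genes) passed as higher too. Those that passed as lower were S100a8 and S100a9 (2 of 3 neutrophil genes) and Col1a1 (1 of 6 fibroblast genes). Signs were mixed within lists: Cd14 (log2 fold change −0.70), Itgax (−0.46) and Csf3r (0.13) went against the passing markers of their lists, without passing. No marker with a value was at 0 in all tumors of a model, and the part of these cells in the differences below was not tested. In bulk RNA, fewer cells of a type cannot be told apart from less RNA per cell. The libraries TP2 and TP4 differed from TP1 and TP3 along the GC content of transcripts, and the calls that this moves are given with and without them.

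Because the genes are grouped here by a shared way of being switched on, the promoters were searched for the 2 elements. RefSeq windows of 300 bases around the gene start (250 before, 50 after, GRCm38.p6) were at hand for 38 of the 49 genes. The core of the ISRE was searched as GAAANNGAAA and the GAS as TTCNNNGAA, on both strands. The ISRE core stood in the window of 20 of the 38 genes, 52.6%, beside 3.59% of 11441 tested genes with a window and 3.99% of all 27025 genes with one. The GAS stood in 13 of the 38, 34.2%, beside 8.16% and 9.55%. A GAS ends in letters with which the ISRE core begins, so the 2 can overlap, and in Bst2 and Ifitm3 they did. The following stretches, read 5′ to 3′ on the strand of the gene with every ISRE core in capitals, are shown because they carry the element before the start of genes described below, among them Bst2 (of the 8 genes that passed the test below, 5 have a window and 1 of these, Bst2, holds the element) and 4 GTPase genes that were high together in 1 tumor. A match of letters is a description and not evidence that a factor was bound.
Bst2, chr8:71537557-71537632, minus strand: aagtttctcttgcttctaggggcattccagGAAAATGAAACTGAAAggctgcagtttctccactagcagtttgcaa
Isg15, chr4:156200845-156200926, minus strand: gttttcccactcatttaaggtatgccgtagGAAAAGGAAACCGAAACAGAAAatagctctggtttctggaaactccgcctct
Ifit1, chr19:34640755-34640843, plus strand: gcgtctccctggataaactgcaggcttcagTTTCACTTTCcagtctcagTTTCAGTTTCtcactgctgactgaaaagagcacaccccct
Gbp2, chr3:142620574-142620643, plus strand: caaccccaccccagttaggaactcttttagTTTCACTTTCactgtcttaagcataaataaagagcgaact
Gbp7, chr3:142530253-142530322, plus strand: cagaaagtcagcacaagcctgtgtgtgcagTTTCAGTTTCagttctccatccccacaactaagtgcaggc
Irgm1, chr11:48871421-48871480, minus strand: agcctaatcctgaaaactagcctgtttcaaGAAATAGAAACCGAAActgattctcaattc
Tgtp1, chr11:48992284-48992353, minus strand: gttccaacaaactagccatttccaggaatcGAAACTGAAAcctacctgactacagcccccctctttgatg

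The interferon response genes did not move as a group between the models. Of the 46 compared, 5 were higher in Tp-BCC at an adjusted p under 0.05 (Oasl1, Ifi27l2a, Ifitm1, Usp18 and Bst2), which is 10.9% beside 11.1% of all 14390 genes tested. Of the 46, Oasl1 and Zbp1 had fewer than 4 GEM-BCC tumors at 10 counts. Fewer than 4 such Tp-BCC tumors were found for 9 genes: Ifih1, Zbp1, Ifit1, Ifit3b, Gbp3, Gbp5, Iigp1, Tgtp1 and Ifi44. Another 3 were lower (Dtx3l, Irf9 and Ifi27), which is 6.52% beside 8.35% of all genes. The median log2 fold change, Tp-BCC over GEM-BCC, was 0.00 over the 46 and −0.03 over all genes, with 23 of the 46 above 0 and 23 below. At an unadjusted p under 0.05 there were 16 of 46, beside 4964 of 14390. A log2 fold change beyond 2 in either direction together with the adjusted p was reached by 1 gene, Oasl1, which is 2.17% beside 5.57% of all genes. All 4 Tp-BCC tumors lay above all 9 GEM-BCC tumors for 3 genes, 6.52% beside 5.5% of all genes, and below all of them for 2 genes, 4.35% beside 4.45%. The shares stood near their backgrounds, and the count of 1 gene beyond a log2 fold change of 2 is too small to set its share apart. The plot of fold changes by role shows that the 8 genes are spread over 6 roles.

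**Figure D1:**
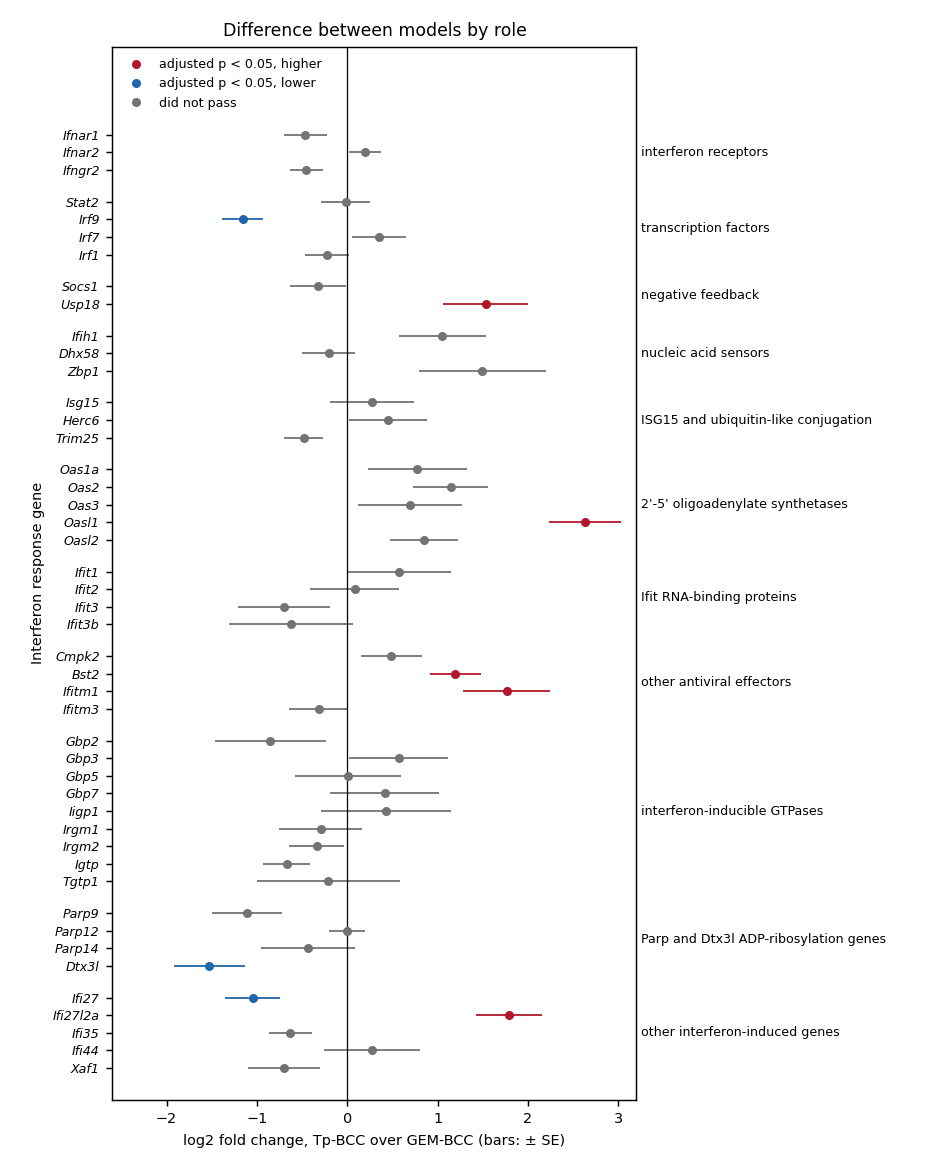
Log2 fold change (Tp-BCC over GEM-BCC) with its SE for the 46 interferon response genes tested, grouped by role, from 4 Tp-BCC and 9 GEM-BCC tumors. The 5 genes in red were higher and 3 in blue lower at an adjusted p under 0.05. The 5 oligoadenylate synthetase genes shown lay above 0, and the 4 Parp and Dtx3l genes shown lay at or below 0.

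Single libraries moved these counts. Without TP2 there were 3 genes higher and 2 lower, without TP4 2 higher and 3 lower, and without GEM1 4 higher and 6 lower. When TP2 and TP4 were left out, Oasl1 remained higher and Irf9 lower, Ifih1 became higher, Socs1 and Ifi35 became lower, and the other 6 calls were lost. When TP1 and TP3 were left out instead, 5 genes were higher and 9 lower. With the trend along GC content removed from every tumor, all 8 genes kept their calls, 7 were higher (15.2%, beside 15.1% of all genes) and 6 lower (6 of 46, beside 13.3%), the additions being Ifih1, Oas2, Socs1, Parp9 and Ifi35.

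The receptor chains did not differ between models at the threshold. Ifnar1, the signalling chain of the type I receptor, was at 118.5, 96.4, 102 and 43.6 CPM in TP1 to TP4 and at 98.0 (lowest), 123 (median) and 164 (highest) CPM in GEM-BCC. All 4 Tp-BCC tumors lay below the GEM-BCC median and TP4 stood lowest of all 13, but TP1 and TP3 lay within the GEM-BCC range. The log2 fold change was −0.46 ± 0.23 (SE; edgeR, adjusted p = 0.174). Without TP1 and TP3 it passed the threshold (adjusted p = 0.0308). The other type I chain, Ifnar2, had a log2 fold change of 0.20, and Ifngr2, the signalling chain of the interferon gamma receptor, one of −0.46 (adjusted p = 0.0893).

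Of the 4 transcription factors, Irf9 was lower in Tp-BCC. Irf9 is the DNA-binding partner of Stat2 in the complex that recognises the ISRE. It stood at 12.7, 12.1, 12.8 and 11.4 CPM in TP1 to TP4, against 20.2 (GEM3), 26.7 (median) and 44.0 CPM (GEM6) in GEM-BCC. The groups did not overlap, and the Tp-BCC tumors lay close together. Irf9 fell by 1.16 on the log2 scale (SE 0.226; edgeR, adjusted p = 0.00278), and passed the threshold when any 1 tumor was left out (adjusted p between 0.00184 and 0.0128), when TP1 and TP3 were left out (adjusted p = 0.00518) and when TP2 and TP4 were (adjusted p = 0.0285).
Its partner Stat2 had a log2 fold change of −0.02. Irf7, the factor that amplifies type I interferon production, had one of 0.35, and Irf1, which interferon gamma induces, one of −0.22 ± 0.24 (adjusted p = 0.536). Irf1 was at 16.7, 24.3, 15.5 and 23.6 CPM in TP1 to TP4 and at 14.9, 22.6 and 35.9 CPM (lowest, median, highest) in GEM-BCC, so that all Tp-BCC values lay inside the GEM-BCC range. Without TP1 and TP3 the sign of the Irf1 difference turned (0.04).

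Both feedback genes encode proteins that restrain the receptor, and 1 of them, Usp18, passed the test. Usp18, which removes Isg15 from proteins and blocks the type I receptor, was at 1.53, 1.80, 1.20 and 1.93 CPM in TP1 to TP4, and at 0.182 (GEM2), 0.601 (median) and 1.02 CPM (GEM6) in GEM-BCC. Every Tp-BCC tumor lay above every GEM-BCC tumor in CPM. Usp18 had few counts, 5 to 34 per GEM-BCC tumor with 6 tumors at 10 or more, against 20 to 28 in Tp-BCC. It was higher in Tp-BCC with a log2 fold change of 1.53 ± 0.47 (edgeR, adjusted p = 0.0327), a call that was lost without GEM1 (adjusted p = 0.0531), TP1 (0.0577), TP2 (0.100) or TP4 (0.102), without TP2 and TP4 (0.208), and with scaling by library size alone (0.0506). Socs1, which binds and inhibits the receptor kinases, was at 12.4, 22.3, 10.4 and 32.6 CPM in TP1 to TP4 and at 15.03, 22.4 and 36.8 CPM in GEM-BCC. TP1 and TP3 lay below every GEM-BCC tumor, and TP2 and TP4 inside the range. Its log2 fold change was −0.33 ± 0.31 (adjusted p = 0.479). It reached 0.18 without TP1 and TP3, and passed the threshold as lower with the GC trend removed (adjusted p = 0.0290).

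None of the 3 sensors of foreign or misplaced nucleic acid passed the test. Dhx58, a helicase that tunes RNA sensing, was at 2.06, 3.02, 2.63 and 3.36 CPM in TP1 to TP4 and at 2.00, 3.42 and 4.08 CPM in GEM-BCC. The Tp-BCC values all lay inside the GEM-BCC range and under its median, and the log2 fold change was −0.20 ± 0.29 (edgeR, adjusted p = 0.648). Ifih1 (Mda5, a sensor of long double-stranded RNA) had a log2 fold change of 1.05 (adjusted p = 0.136). Its Tp-BCC tumors were split, with 2.59 and 3.35 CPM in TP1 and TP3, above all GEM-BCC tumors, and 0.900 and 0.428 CPM in TP2 and TP4. With the GC trend removed Ifih1 passed the threshold (log2 fold change 1.26, adjusted p = 0.0154). Zbp1, a sensor of Z-form nucleic acid that can trigger cell death, had a log2 fold change of 1.495 (adjusted p = 0.146) and ranged from 0.299 CPM in TP3 to 2.21 CPM in TP4.

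The 3 genes of the Isg15 system, which attaches the ubiquitin-like protein Isg15 to other proteins, did not pass either. Isg15 itself was at 2.296, 1.48, 1.08 and 5.28 CPM in TP1 to TP4 and at 0.799, 2.44 and 3.36 CPM in GEM-BCC. TP4 stood above all other tumors and the rest lay inside the GEM-BCC range, with a log2 fold change of 0.27 (edgeR, adjusted p = 0.707). Trim25, a ligase that acts on the RNA sensor Rig-I, was at 38.4, 61.5, 34.2 and 40.4 CPM in TP1 to TP4 and at 46.0, 66.2 and 74.9 CPM in GEM-BCC. TP1, TP3 and TP4 lay below every GEM-BCC tumor and TP2 did not, and the log2 fold change was −0.48 ± 0.22 (adjusted p = 0.125, and 0.0476 without TP2). Herc6, the mouse ligase for Isg15, had a log2 fold change of 0.45.

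The 5 oligoadenylate synthetase genes among the 46 had a log2 fold change above 0 and 1 of them, Oasl1, passed the test. The family as a whole did not share this direction. Outside the 46, Oas1c was lower in Tp-BCC (log2 fold change −1.05; edgeR, adjusted p = 0.0115) and Oas1g had a log2 fold change of 0.04. These enzymes make the short oligoadenylates that switch on RNase L, while Oasl1 is a relative that acts in other ways. Oasl1 was at 1.18, 1.48, 1.20 and 2.64 CPM in TP1 to TP4, and at 0.145 (GEM2), 0.230 (median) and 0.479 CPM (GEM8) in GEM-BCC. The Tp-BCC tumors lay above all GEM-BCC tumors, TP4 the farthest. Its log2 fold change of 2.63 ± 0.40 (edgeR, adjusted p = 4.06e-04) rests on few GEM-BCC counts, 4 to 15 per tumor with 3 tumors at 10 or more, against 20 to 37 in Tp-BCC. The gene entered the test through the Tp-BCC tumors, where it is high, so the size of the fold is uncertain and the call is no independent support. It passed the threshold without any 1 tumor (adjusted p at most 0.00320) and without TP2 and TP4 (log2 fold change 2.18, adjusted p = 0.0126). Oasl2 was at 4.89, 4.37, 3.47 and 5.50 CPM in TP1 to TP4 and at 0.727, 2.55 and 4.14 CPM in GEM-BCC. TP1, TP2 and TP4 lay above every GEM-BCC tumor and TP3 inside the range, and the log2 fold change of 0.85 ± 0.38 did not pass (adjusted p = 0.127). The other fold changes on the log2 scale were 1.14 for Oas2 (adjusted p = 0.0642), 0.78 for Oas1a and 0.69 for Oas3. Of the 100-base words of the longest Oas1a transcript 40.9% also occur in Oas1g, so its counts depend on how shared reads were divided.

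The 4 Ifit genes, whose proteins hold viral RNA back from translation, had log2 fold changes from −0.70 (Ifit3) to 0.57 (Ifit1), and none passed. Ifit2 was at 19.0, 3.34, 25.1 and 2.50 CPM in TP1 to TP4 and at 7.29, 12.2 and 18.3 CPM in GEM-BCC. TP1 and TP3 lay above all GEM-BCC tumors and TP2 and TP4 below all of them, so its log2 fold change of 0.08 ± 0.49 (edgeR, adjusted p = 0.924) averages values on both sides of GEM-BCC. Without TP1 and TP3 the fold was −2.01 and passed the threshold (adjusted p = 0.00227). Ifit3 and Ifit3b, neighbours on chromosome 19, share 31.7% and 27.4% of their 100-base words with each other, so their separate values are uncertain. The promoter stretches around their ISRE cores were identical over 104 bases.

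Among the other antiviral effectors, Ifitm1 and Bst2 were higher in Tp-BCC. Ifitm1, a membrane protein that hinders entry of viruses, was at 36.7, 36.1, 31.1 and 49.0 CPM in TP1 to TP4, and at 4.99 (GEM7), 7.54 (median) and 42.4 CPM (GEM3) in GEM-BCC. GEM3 lay inside the Tp-BCC range, and the other 8 GEM-BCC tumors lay below all Tp-BCC tumors. The log2 fold change was 1.76 ± 0.48 (edgeR, adjusted p = 0.0187). The call was lost without TP2 (adjusted p = 0.0508) or TP4 (0.0692), without TP2 and TP4 (0.128) and without GEM5 and GEM6 (0.0536).
Bst2, or tetherin, which holds budding virus at the cell surface, was at 10.5, 16.6, 11.7 and 21.3 CPM in TP1 to TP4, and at 3.31 (GEM2), 5.79 (median) and 9.77 CPM (GEM5) in GEM-BCC. The groups did not overlap, and the log2 fold change was 1.20 ± 0.29 (edgeR, adjusted p = 0.00969). Without TP4 it was 0.93 and missed the threshold (adjusted p = 0.0573), as it did without TP2 and TP4 (0.175).
The relative Ifitm3 did not go the way of Ifitm1. It was at 60.4, 103, 60.3 and 156 CPM in TP1 to TP4 and at 69.9, 113 and 194 CPM in GEM-BCC, with TP1 and TP3 below and TP2 and TP4 inside the GEM-BCC range. The log2 fold change was −0.32 ± 0.32 (edgeR, adjusted p = 0.508), and 0.13 without TP1 and TP3. Whether the folds of Ifitm1 and Ifitm3 differ from each other was not tested. Cmpk2, a nucleotide kinase of mitochondria next to Rsad2, had a log2 fold change of 0.49.

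Mx1 and Mx2, dynamin-like antiviral proteins, and Rsad2 (viperin) could not be compared. Mx1 and Mx2 have values in the GEM-BCC tumors alone, between 0.197 and 0.808 CPM for Mx1 and between 0.526 and 2.74 CPM for Mx2, where GEM5 was highest. The table holds no entry for them in Tp-BCC, which is not the same as a count of 0, since 114 genes are listed at 0 in all 4 Tp-BCC tumors. If the missing entries were zeros, both would pass as lower in Tp-BCC. Rsad2, an enzyme that makes a chain-terminating nucleotide, had under 10 counts in most tumors, at 0.353, 0.129, 0.359 and 0.143 CPM in TP1 to TP4 and 0.127 to 0.571 CPM in GEM-BCC.

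**Figure D2:**
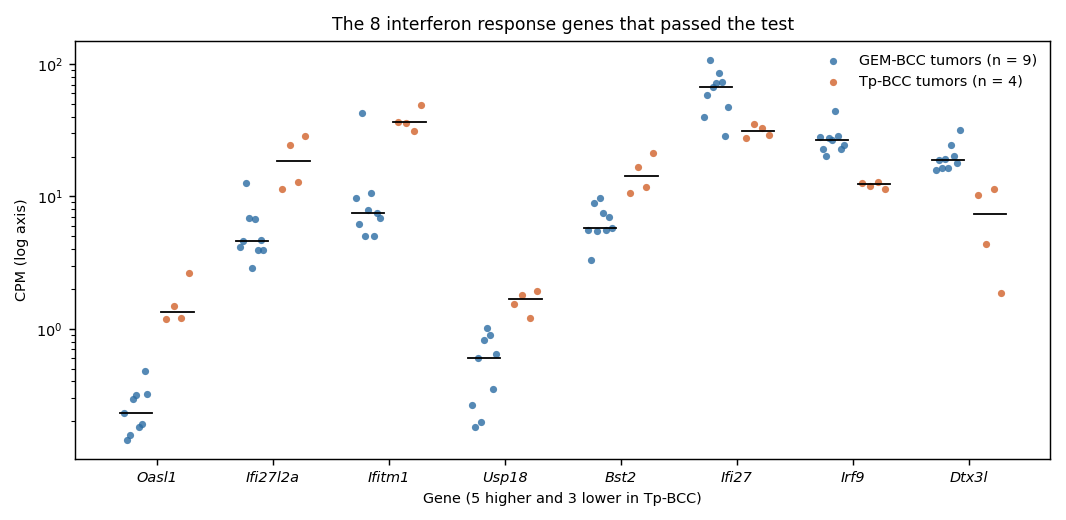
CPM on a log axis in each of 9 GEM-BCC (blue) and 4 Tp-BCC (orange) tumors for the 8 interferon response genes that passed the test, with black lines at the medians. The models do not overlap for Oasl1, Usp18, Bst2, Irf9 and Dtx3l. GEM3 reached 42.4 CPM for Ifitm1, inside the Tp-BCC range.

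The 4 genes of ADP-ribosylation had log2 fold changes from −1.53 to −0.00, and 1 of them, Dtx3l, was lower in Tp-BCC. Dtx3l is a ubiquitin ligase that works as a pair with Parp9, and both are induced by interferon gamma. Dtx3l was at 10.3, 4.37, 11.3 and 1.86 CPM in TP1 to TP4, and at 15.9 (GEM1), 18.9 (median) and 31.6 CPM (GEM9) in GEM-BCC. All Tp-BCC tumors lay below all GEM-BCC tumors, TP2 and TP4 the farthest. Dtx3l fell by 1.53 on the log2 scale (SE 0.392; edgeR, adjusted p = 0.0141), and missed the threshold without TP2 (adjusted p = 0.0545) and without TP2 and TP4 (log2 fold change −0.90, adjusted p = 0.0601).
Its partner Parp9 was at 15.4, 5.21, 14.5 and 2.71 CPM in TP1 to TP4 and at 12.2, 20.6 and 28.8 CPM in GEM-BCC. TP2 and TP4 lay below every GEM-BCC tumor, and TP1 and TP3 near the bottom of the range. Parp9 had a log2 fold change of −1.11 ± 0.39 (edgeR, adjusted p = 0.0577), and passed with the GC trend removed (−0.91, adjusted p = 0.00758). Parp14, which modifies Stat proteins, had a log2 fold change of −0.43. Parp12, an antiviral zinc-finger member of the family, was at 27.9, 40.6, 25.8 and 32.6 CPM in TP1 to TP4 and at 22.6, 32.5 and 41.9 CPM in GEM-BCC, so the groups overlapped fully and the log2 fold change was −0.00 ± 0.20 (adjusted p = 0.993), of a sign that turned with the processing.

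Of the 5 remaining interferon-induced genes, Ifi27 was lower and its relative Ifi27l2a higher in Tp-BCC. Both encode small membrane proteins of the Ifi6/Ifi27 family, and they lie near each other on chromosome 12. Ifi27 was at 27.8, 35.0, 32.9 and 29.3 CPM in TP1 to TP4, and at 28.8 (GEM8), 67.6 (median) and 108 CPM (GEM3) in GEM-BCC. All Tp-BCC tumors lay below the GEM-BCC median, with GEM8 among them. Ifi27 fell by 1.05 on the log2 scale (SE 0.3002; edgeR, adjusted p = 0.0239), and the call was lost without TP1 (adjusted p = 0.0610), TP2 (0.0546) or TP4 (0.0572), without TP1 and TP3 (0.0616), without TP2 and TP4 (0.114) and without GEM5 and GEM6 (0.0633).
Ifi27l2a was at 11.4, 24.4, 12.8 and 28.8 CPM in TP1 to TP4, and at 2.89 (GEM5), 4.58 (median) and 12.6 CPM (GEM3) in GEM-BCC. GEM3 overlapped with TP1, and the other 8 GEM-BCC tumors lay below all Tp-BCC tumors. The log2 fold change was 1.79 ± 0.36 (edgeR, adjusted p = 0.00348). It passed without any 1 tumor (adjusted p at most 0.0245), but not without both TP2 and TP4 (1.10, adjusted p = 0.124). Ifi35 had a log2 fold change of −0.63 (adjusted p = 0.0773), Xaf1, a promoter of apoptosis, one of −0.70, and Ifi44 one of 0.28.

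None of the 9 interferon-inducible GTPases, which attack the vacuoles of intracellular microbes and respond to interferon gamma most of all, passed the test. Their log2 fold changes ran from −0.85 (Gbp2) to 0.57 (Gbp3), with a median of −0.21. Igtp (Irgm3) came nearest to the threshold. It was at 10.2, 7.201, 7.42 and 4.86 CPM in TP1 to TP4 and at 7.59, 12.1 and 15.02 CPM in GEM-BCC, with 3 Tp-BCC tumors below every GEM-BCC tumor, and its log2 fold change was −0.67 ± 0.26 (edgeR, adjusted p = 0.0846). It passed as lower without GEM1 (adjusted p = 0.0481), without TP1 and TP3 (0.0271) and in the DESeq2 test (0.0281). Without TP1 and TP3 Irgm1 passed as lower too, and without TP2 and TP4 none of the 9 passed. Reads of Tgtp1 are hard to assign, as 83.3% of its 100-base words occur in other genes, mainly its copy Tgtp2. Shared words were fewer for Herc6 (20.9%), Gbp7 (10.2%), Ifnar2 (7.33%) and Igtp (5.67%).

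Within GEM-BCC the GTPases were high together in GEM5. Summed over the 9 genes they stood at 61.2 CPM in GEM5, 44.8 in GEM6, 40.6 in GEM7, 39.8 in GEM9, 38.3 in GEM3, 30.8 in GEM8, 29.7 in GEM2, 27.6 in GEM4 and 23.1 in GEM1. The Tp-BCC sums of 42.2 (TP1), 19.9 (TP2), 41.1 (TP3) and 15.6 CPM (TP4) lay inside that range for TP1 and TP3 and below every GEM-BCC tumor for TP2 and TP4. GEM5 was the highest GEM-BCC tumor for 7 of the 9 GTPases: Gbp2 (11.1 CPM beside a GEM-BCC median of 3.95), Gbp3 (2.74 beside 1.02), Gbp5 (2.29 beside 0.607), Gbp7 (4.66 beside 1.91), Iigp1 (4.86 beside 0.938), Irgm1 (8.77 beside 5.82) and Tgtp1 (2.20 beside 0.351). Irgm2 was highest in GEM9 and Igtp in GEM3. Of the genes led by GEM5, Gbp3, Gbp5, Iigp1 and Tgtp1 had fewer than 4 Tp-BCC tumors at 10 counts, so they needed GEM-BCC tumors to enter the test. Their lowest GEM-BCC tumor had 14, 6, 7 and 4 counts.

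**Figure D3:**
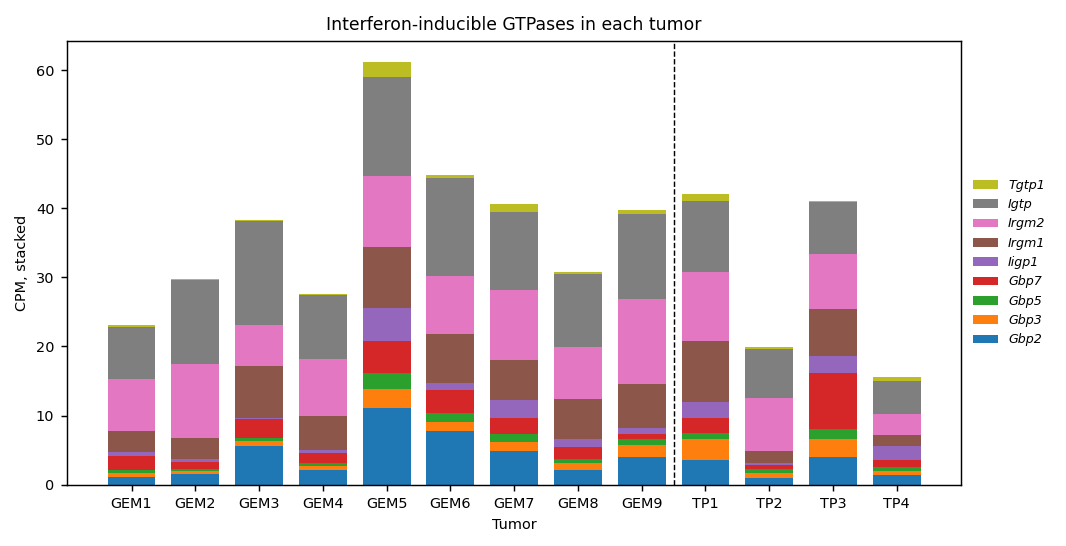
CPM of the 9 interferon-inducible GTPases, stacked, in each of 9 GEM-BCC and 4 Tp-BCC tumors, with a dashed line between the models. GEM5 has the tallest bar at 61.2 CPM and GEM1 the lowest of GEM-BCC at 23.1 CPM, and TP2 and TP4 have the lowest bars of all.

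Counted over all 46 genes, GEM5 was the highest GEM-BCC tumor for 14, or 30.4%, beside 7.34% of all genes tested. Most of the 14 carried the promoter element shown above. GEM5 was highest for 11 of the 19 tested genes with an ISRE core in their window, 6 of 8 GTPases and 5 of 11 others, and for 1 of 18 genes with a window without it. Over the 392 tested genes outside the list that hold the element the share was 8.93%. This count was made after the values had been seen, and the 46 genes share the 1 tumor, so no test is attached to it. It includes genes of few counts that needed GEM-BCC tumors to enter the test, among them Gbp3, Gbp5, Iigp1, Tgtp1 and Ifit3b. Ifit3 and Ifit3b, both highest in GEM5, are counted separately among the 5 others, although the stretches around their ISRE cores are identical. GEM5 also had the highest summed CPM of T and NK cell markers (4.97, with GEM6 next at 4.73 and a GEM-BCC median of 3.04), of B and plasma cell markers (9.97 beside 0.926, of which Jchain made 8.74 and the other 5 genes 1.23) and of endothelial markers (204.4 beside 148). The T cell marker Cd4 was at 1.71 CPM in GEM5 and higher in GEM6 (2.33) and GEM1 (3.19). Other lists were led by other tumors. GEM6 had the highest sums of macrophage (281 beside 161.5 in GEM5), dendritic cell (13.6 beside 12.6) and fibroblast markers (49010 beside 36400). Neutrophil markers were highest in GEM7 (8.21 beside 3.29 in GEM5), and those of basal keratinocytes and BCC in GEM1 (17960 beside 12580). Interferon gamma itself, Ifng, had 1 count in GEM5, none in the other GEM-BCC tumors and 1 in TP1. Whether lymphocytes in that tumor had a part in its high GTPase level was not tested.

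Tumors of the same mouse differed as well. GEM3 exceeded GEM2 by more than 1 on the log2 scale for 14 of the 46 genes, led by Ifitm1 (2.77), Oas1a (2.58), Oas2 (2.28), Ifit1 (1.87) and Gbp2 (1.87), and was lower by more than 1 for Xaf1 alone (−1.53). Over all genes 9.94% exceeded that difference, while the median absolute difference was 0.48 over the 46 genes and 0.49 over all genes. GEM7 exceeded GEM8 by more than 1 for 9 genes, among them Oas3 (1.64) and Tgtp1 (1.48), and was lower by more than 1 for 4, among them Ifit2 (−1.32) and Ifi44 (−1.28), beside 9.49% of all genes above 1, and the median absolute difference was 0.60 over the 46 and 0.32 over all genes. GEM3 was the highest GEM-BCC tumor for 11 of the 46 genes (23.9%, beside 20.6% of all genes), GEM1 the lowest for 12 (26.1%, beside 19.5%) and GEM2 the lowest for 11 (23.9%, beside 9.11%). GEM1 was also the 1 GEM-BCC library whose levels rose with GC content over all genes (Spearman's rho 0.36, against −0.31 to −0.15 in the others). These pairs share a host, so the counts describe 2 mice and carry no test.

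**Figure D4:**
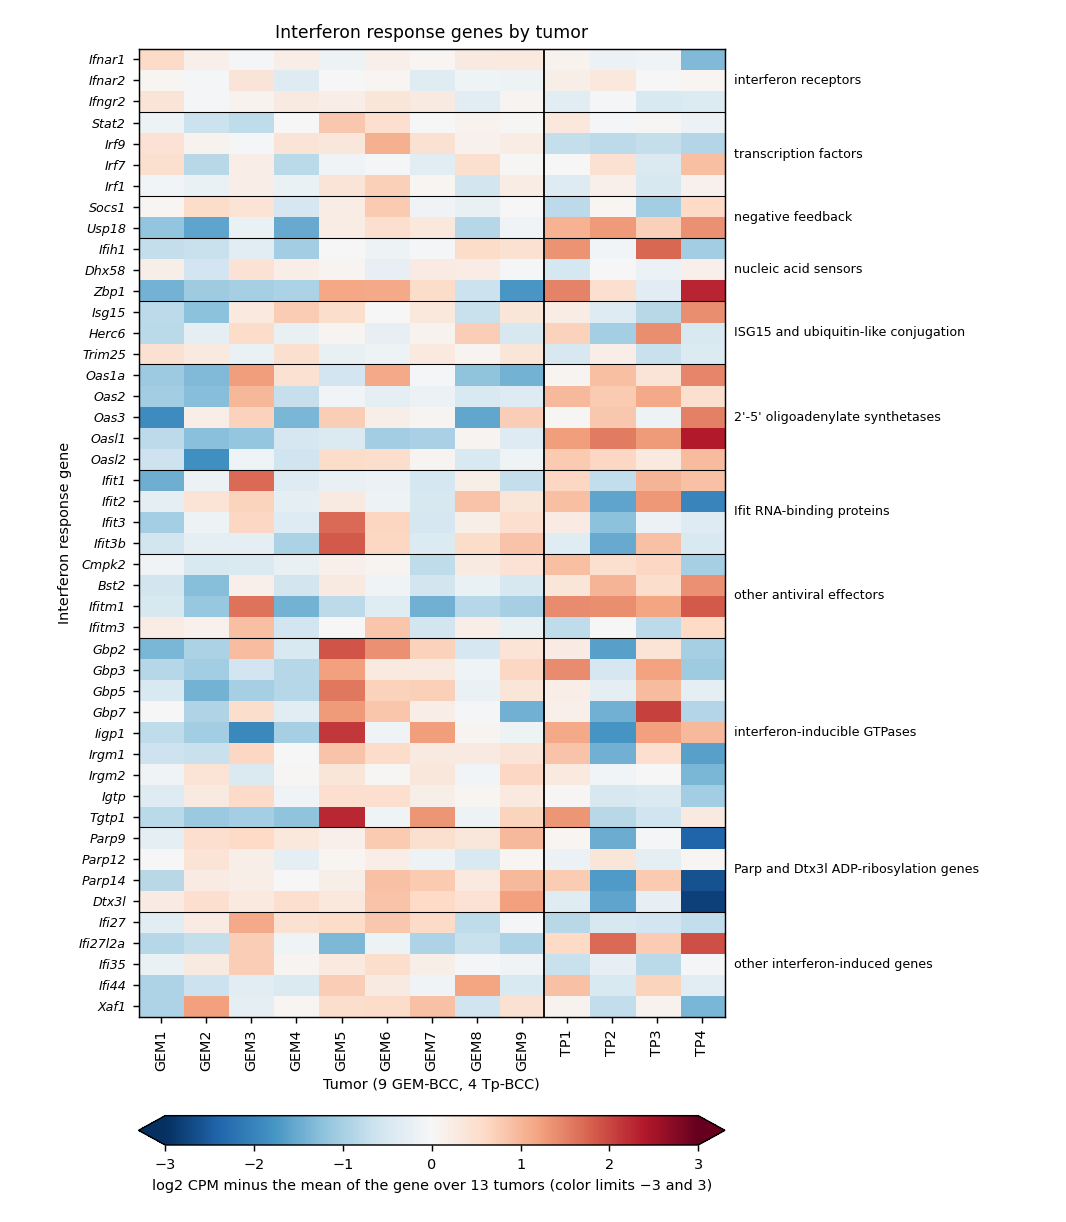
Log2 CPM of the 46 tested interferon response genes in 9 GEM-BCC and 4 Tp-BCC tumors, each gene relative to its mean over the 13 tumors, grouped by role. GEM5 is high across the GTPases, GEM3 across Oas1a, Oas2, Ifit1 and Ifitm1, and TP2 and TP4 are low for Ifit2, Parp9, Parp14 and Dtx3l.

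The interferon response genes varied between tumors of one model more than genes at large, a comparison that is not matched on level. The median SD of log2 CPM was 0.53 over the 46 genes and 0.435 over all genes in GEM-BCC, and 0.66 beside 0.575 in Tp-BCC. For 60.9% of the 46 the SD was larger in Tp-BCC, beside 62.8% of all genes.

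Much of the Tp-BCC spread ran along 1 line, TP1 and TP3 on one side and TP2 and TP4 on the other. TP2 and TP4 both lay below TP1 and TP3 for 23 of the 46 genes, beside 35.9% of all genes, and both above for 14, 30.4% beside 43.6%. Parp14, for example, had 18.5, 3.28, 18.7 and 1.71 CPM in TP1 to TP4, and Irgm1 had 8.83, 1.74, 6.82 and 1.499 CPM. Socs1, Ifitm3, Irf7 and Oas3 had the opposite split. The difference, mean log2 CPM of TP2 and TP4 minus that of TP1 and TP3, followed the GC content of the transcripts, with Spearman's rho of 0.85 over the 46 genes and 0.79 over 14095 genes, which share the same 4 libraries and are given as a description. The GC content of the 46 genes ran from 39.3% to 58.7%, with a median of 49.95% beside 51.3% of all genes. The median difference was −0.36 over the 46 genes and 0.09 over all genes, and 0.07 beside 0.06 with the GC trend removed. The same removal brought the median SD in Tp-BCC to 0.43 for the 46 genes and 0.356 for all genes, and in GEM-BCC to 0.49 and 0.411, so that with the trend removed the median SD was smaller in Tp-BCC than in GEM-BCC.

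**Figure D5:**
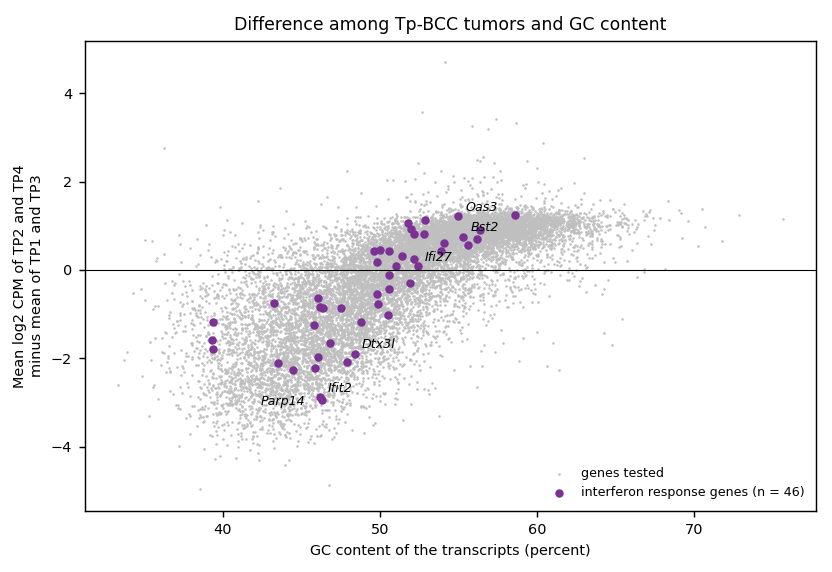
Mean log2 CPM of TP2 and TP4 minus that of TP1 and TP3 (vertical axis) against the GC content of the transcripts in percent, for all tested genes (gray) and the 46 interferon response genes (purple, 6 named). Genes under about the median of 49.95% lie mostly below 0, down to Parp14 and Ifit2, and genes of higher GC content mostly above 0, as Oas3 and Bst2 do.

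The wider pathway was described with 127 further genes, of which 93 could be tested. Of these 93, 11 were higher in Tp-BCC (11.8%, beside 11.1% of all genes) and 3 lower (3.23%, beside 8.35%), with a median log2 fold change of 0.17. Without TP1 and TP3 there were 19 higher and 19 lower, and without TP2 and TP4 8 higher and 1 lower. The ligands themselves were hardly seen: of 17 interferon genes, only Ifnz and Ifng have values in both models, none could be tested, and together they summed to at most 0.150 CPM in a GEM-BCC tumor and 0.236 CPM in a Tp-BCC tumor. None of 8 further receptor chains and kinases, among them Stat3, and none of 9 further negative regulators passed.

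Of 16 tested sensors and adaptors that act upstream of interferon, 4 were higher in Tp-BCC (Ifi203, Ifi204, Aim2 and Mavs) and 0 lower. Over all genes tested, 11.1% were higher and 8.35% lower. The DNA sensing genes Cgas, Sting1 and Tlr9 did not pass (edgeR, adjusted p = 0.276, 0.410 and 0.223). Neither did Ifi205 and Ifi207 (adjusted p = 0.0532 and 0.2315). Ifi203 and Ifi204, members of the PYHIN family of DNA-binding proteins, and Aim2, the DNA sensor of the same family that starts an inflammasome, were all higher in Tp-BCC. The Ifi200 genes are a family of related copies, and how many reads they share was not measured, so the separate values of Ifi203 and Ifi204 are uncertain. Aim2 was at 14.95, 3.34, 22.6 and 3.28 CPM in TP1 to TP4 and at 0.226 to 2.06 CPM in GEM-BCC, without overlap, and its log2 fold change was 3.94 ± 0.60 (edgeR, adjusted p = 4.65e-04). Ifi203 was at 19.0, 4.37, 35.3 and 12.9 CPM in TP1 to TP4 and at 0.327 to 1.93 CPM in GEM-BCC, with a log2 fold change of 4.26 ± 0.49 (adjusted p = 3.41e-05). Both passed without TP2 and TP4 and without TP1 and TP3, where the log2 fold change of Aim2 was 4.68 and 2.21 and that of Ifi203 was 4.85 and 3.21. Ifi204 was at 8.18, 1.35, 10.95 and 10.07 CPM in TP1 to TP4, with TP2 inside the GEM-BCC range of 0 to 1.52 CPM. Its GEM-BCC counts were 0 in 3 tumors and reached 10 in 2, so it entered the test through Tp-BCC, and although it passed as higher (adjusted p = 0.00328) no size is given for its fold. Mavs, the adaptor of the RNA sensors, rose by 0.70 (adjusted p = 0.0161). Without TP2 and TP4 its log2 fold change was 0.41 and missed the threshold (adjusted p = 0.171).

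Among effectors and factors, Samhd1, which depletes the nucleotides that viruses need, was higher by 1.06 on the log2 scale (edgeR, adjusted p = 6.33e-04), with 119, 115, 109 and 92.5 CPM in TP1 to TP4 and 40.0 to 63.8 CPM in GEM-BCC. Slfn9 had a log2 fold change of 3.47 (adjusted p = 0.00112) with 53.4, 6.43, 140.0 and 13.9 CPM in TP1 to TP4, so that TP2 lay inside the GEM-BCC range of 1.53 to 9.26 CPM. Without TP1 and TP3 the log2 fold change of Slfn9 was 1.08 and missed the threshold (adjusted p = 0.120). Batf2, a factor that works with Irf1, was higher by 2.28 (adjusted p = 0.00403) and Mov10, an RNA helicase, by 1.17 (adjusted p = 0.00912). Both missed the threshold without TP2 and TP4 (adjusted p = 0.0631 and 0.192). Oas1c fell by 1.05 (adjusted p = 0.0115).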

How the data were processed

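Per the labels and the methods of the study, poly(A) RNA was sequenced strand-specifically, and the authors aligned the reads with Bowtie2 2.3.4.3 to transcripts of GRCm39 and quantified genes with RSEM 1.3.1. The deposited table holds RSEM expected counts per gene symbol for 13 tumors, not normalized. Genes without a value lack it in all tumors of a model, and how this arose is not stated. Expected counts divide a read that fits several genes between them.

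The interferon response genes and the other gene lists were chosen with earlier results of these data known. Counts were rounded. A gene was tested if every one of the 13 tumors had a value and 4 or more tumors had 10 or more counts. The test was edgeR's quasi-likelihood F test (version 4.0.16 in R 4.3.3, robust dispersions, TMM scaling, 2-sided, without covariates), with Benjamini-Hochberg adjustment over all 14390 genes and a threshold of 0.05. Dividing a log2 fold change by the root of its F gave the SE. A prior count of 2 was used for log2 CPM. GEM-BCC tumors were treated as separate samples although 4 of them came from 2 mice, and Tp-BCC tumors although they are transplants of 1 line, so p-values measure the spread between these tumors.

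GC content is that of the GENCODE vM21 protein-coding transcripts, and the trend along it was smoothed by lowess (span 0.3) and removed for each tumor. Genes described in full are those that passed the test and, in each role, the one with the highest mean log2 CPM (not per length); of the other pathway genes, up to 10 that passed are named, smallest p first (1 of them is not reported here), and of each marker list the one with the highest mean. Alternatives were DESeq2 1.42.0 (its test or its size factors), library size scaling, other count filters, dispersions that were not robust, counts summed per mouse, a replicate block, missing values set to 0, removal of the GC trend and each tumor left out. Leaving out TP1 and TP3, TP2 and TP4, or GEM5 and GEM6, the GC-corrected spread, and all alternatives for the other pathway genes, were added after the data had been seen. Promoter sequences are RefSeq's for GRCm38.p6.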

Additional observations from a re-analysis of the deposited data

Results flagged for a closer look

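In 36 checks, 1 for each of the 18 genes described in full in each model, 3 found a tumor standing apart from the rest of its model by Dixon's criterion, where chance gives about 1 in 20, or 1.8. Irf9 was highest in GEM6, at 5.46 log2 CPM (44.0 CPM), with the next GEM-BCC tumor at 4.86. Ifitm1 was highest in GEM3, at 5.41 log2 CPM (42.4 CPM), with the next at 3.41, and without GEM3 the log2 fold change of Ifitm1 was 2.34 (edgeR, adjusted p = 2.31e-05). Oasl2 was lowest in GEM2, at −0.318 log2 CPM (0.727 CPM), with the next at 0.913. GEM2 and GEM3 share a mouse.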

How the results depend on the processing

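Against 5 genes higher and 3 lower, the number higher was 2 with TP2 and TP4 left out and 2 to 6 with each tumor left out in turn (2 without TP4, 3 without TP2). The number lower was 7 in the DESeq2 test, 6 with the GC trend removed, 5 with missing values set to 0 (Mx1 and Mx2 added), 9 with TP1 and TP3 left out, and 2 to 6 with each tumor left out. Over the whole table, 2792 genes were called, 6119 with TP1 and TP3 left out, 1484 with TP2 and TP4 left out and 1545 to 3020 with each tumor left out (1545 without TP2). With a replicate block 0 of the 46 genes were higher and 0 lower (10 at an unadjusted p under 0.05) and 178 genes were called over the table. Same-numbered tumors come from different mice and their deviations correlated between −0.38 and −0.10, so the numbers do not pair tumors. Of the other pathway genes, 11 were higher and 3 lower. These numbers were 2 and 0 with the replicate block, 19 and 19 with TP1 and TP3 left out, 8 and 1 with TP2 and TP4 left out, and 8 to 14 and 2 to 5 with each tumor left out, and the number lower was 7 in the DESeq2 test and 7 with the GC trend removed. The median log2 fold change of the 46 was −0.30 with TP1 and TP3 left out. With that pair left out the sign turned for Irf1 (0.038), Socs1 (0.18), Dhx58 (0.0040), Ifit2 (−2.01), Ifitm3 (0.13) and Parp12 (0.21). Ifit2 was −0.47 with the replicate block and −0.51 to 0.41 with each tumor left out. Parp12 was 0.012 with counts summed per mouse, 0.086 with the GC trend removed, 0.028 with GEM5 and GEM6 left out and −0.17 to 0.086 with each tumor left out. On variance-stabilized counts the median SD came to 0.36 (GEM-BCC) and 0.39 (Tp-BCC), and it was 0.43 in Tp-BCC and 0.49 in GEM-BCC with the GC trend removed, and 0.47 to 0.71 there with each tumor left out. The cause of these shifts was not tested. Oasl1 and Irf9 passed in every alternative that tested them except the replicate block. At this depth, genes such as Rsad2 with under 10 counts in most tumors could not be compared, and a filter of 10 counts in 10 tumors left Oasl1 untested.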
